A study of Arabidopsis thaliana with 6 samples.

Results

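Tubulin genes encode the subunits of microtubules, and 7 of them could be followed by name on the arrays of this study. They are all probe sets annotated to a single gene whose symbol is TUA or TUB with a number, which gave 2 alpha-tubulin genes (TUA1, AT1G64740, and TUA6, AT4G14960) and 5 beta-tubulin genes (TUB1, AT1G75780; TUB5, AT1G20010; TUB6, AT5G12250; TUB7, AT2G29550; and TUB9, AT4G20890) among 22746 probe sets. Each gene is measured by 1 probe set. The Arabidopsis family has 6 TUA and 9 TUB genes, and the other 8 were not analysed here as single genes. TUA3 and TUA5, which lie side by side in the genome, share 1 probe set, which is described apart. In line 4, 1 of the transgenic lines, TUB7 and TUB9 were lower than in the control, where 7.37% of all probe sets passed as lower. Neither call held under every alternative setting, and TUB9 was the less firm. The single array of the other line, line 1, read above both control arrays at 6 of the 7 genes, as it did at 43.2% of all probe sets compared. A further array has the line 1 strain label but conflicting other labels. With it added to line 1, TUA6, TUB5 and TUB9 stood below the control mean, while TUA1, TUB1 and TUB6 stayed above it.

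Microtubules are hollow polymers of alpha- and beta-tubulin dimers. In plant cells they form the cortical array that guides cellulose synthase at the plasma membrane and so helps to set the direction of growth, and in dividing cells they form the preprophase band, the spindle and the phragmoplast. The genes of the family encode very similar proteins but differ in where they are transcribed. In Arabidopsis, TUA1 and TUB9 are known for their transcripts in pollen, TUB1 for its repression by light in the hypocotyl, and TUA6 for the fluorescent fusion protein that is widely used to see microtubules. Transcripts of TUB6 are known to decline and those of TUB9 to increase in leaves exposed to cold.

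The study asked what the calcium-dependent protein kinase CDPK6 does in development. Total RNA of whole Col-0 seedlings, from pools of about 40 plants grown at 22 °C and 100% humidity with 16 h of light a day, was hybridised to 6 ATH1 arrays. The labels give 2 arrays to the control, called aeq+, which carries an aequorin transgene (a calcium reporter protein). They give 2 arrays to a line called cdpk6-yfp 4 and 1 array to a line called cdpk6-yfp-1, both with a cdpk6-yfp transgene, here called line 4 and line 1. Neither the promoter of that transgene nor the age of the seedlings is stated, and aequorin is named for the control alone. One further array has conflicting labels: its title and source name follow the control, while its strain label gives line 1. That array was assigned to neither group, and its values are given where it is named. None of the named probe sets belongs to CPK3 or CPK6, the genes that carry or have carried the name CDPK6, so the level of the transgene's transcript was not analysed here.

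The values are intensities on a linear scale, with a 2% trimmed mean of about 100 on every array. Across 13648 probe sets past a filter on dim signals, replicate arrays correlated at 0.983 in the control and 0.990 in line 4. The array with conflicting labels stood apart from the control at 0.888 to 0.896 and from line 4 at 0.872 to 0.875, and it was closest to line 1 at 0.931. The mean scanner background was 142.62 for control replicate 2 and 89.78 to 95.64 for the remaining 5. The control probe set for large-subunit ribosomal RNA read 282.1 and 277.2 in the control, 275.4 and 915.9 in line 4, 1073.1 in line 1 and 2189.3 on the array with conflicting labels. The seedling label was checked against markers. LHCB4.2, the 1 of 8 shoot markers named here, read between 2400.5 and 3102.2. The expansin genes EXPA7 and EXPA18 of root hairs, 2 of 6 root markers, read 23.7 to 37.8 and 32 to 50.5. The median intensities of the arrays were 44.2 to 46.4, and no detection call was used. These 2 genes thus do not settle whether root tissue was present. ACT12, a pollen actin and the 1 of 4 pollen markers named here, was at 1.7 to 2.9 on all arrays.

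**Figure D1:**
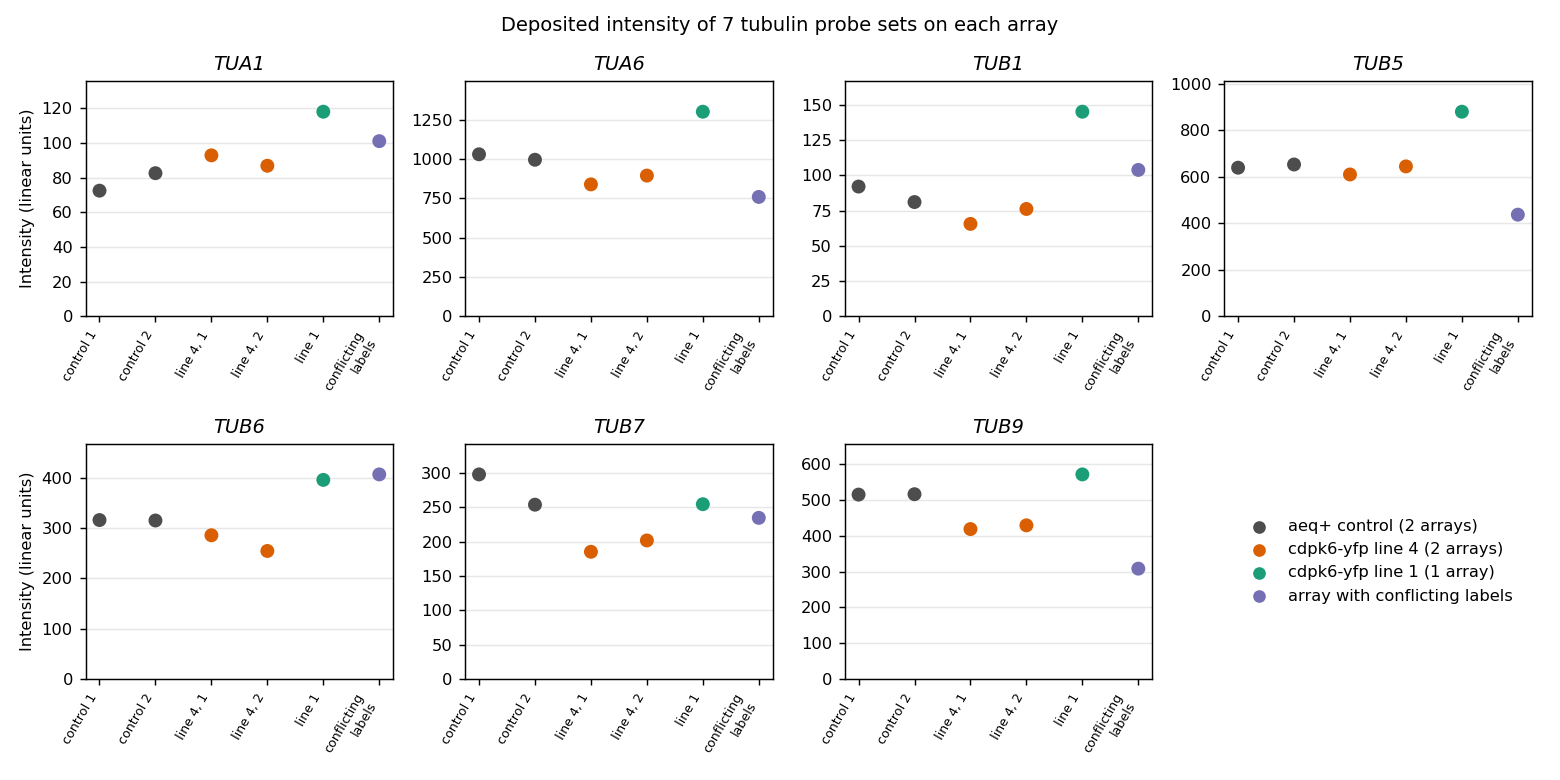
Deposited intensity (linear units, each vertical axis from 0) of the 7 tubulin probe sets on each of the 6 arrays, 1 panel per gene and 1 point per array. Line 4 lies below both controls for TUA6, TUB1, TUB6, TUB7 and TUB9 (33.3% of all probe sets). The line 1 array is the highest of all 6 for TUA1, TUA6, TUB1, TUB5 and TUB9 (20.7% of all probe sets).

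All 7 tubulin probe sets passed the filter on dim signals. Among the alpha-tubulin genes, TUA6 read 1029.2 and 994.5 in the control, 837.9 and 893.8 in line 4, 1299.8 in line 1 and 758.2 on the array with conflicting labels. Both line 4 arrays were thus below both controls, and line 1 was the highest of all. TUA1 read 72.5 and 82.6 in the control, 92.9 and 86.9 in line 4, 118.1 in line 1 and 101.1 on the array with conflicting labels. For TUA1 the control arrays were the lowest of the 6. The probe set shared by TUA3 and TUA5 read 1196.4 and 1182.4 in the control, 1079.6 and 1075.6 in line 4, 1595.5 in line 1 and 1249.6 on the array with conflicting labels, so that, as for TUA6, line 4 lay below and line 1 above the control.

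Among the beta-tubulin genes, TUB7 read 297.9 and 253.8 in the control, 185.2 and 201.7 in line 4, 254.5 in line 1 and 234.6 on the array with conflicting labels. Line 4 was clear of the control on the low side, and line 1 lay between both control arrays. TUB9 read 515.0 and 516.1 in the control, 418.7 and 429.1 in line 4, 571.4 in line 1 and 308.1 on the array with conflicting labels, with the arrays of each replicated group close together. TUB1, the light-repressed gene, read 92.0 and 81.0 in the control, 65.5 and 76.1 in line 4, 145.1 in line 1 and 103.8 on the array with conflicting labels. Its line 4 arrays did not overlap with the control, but replicate 2 of line 4 was near control replicate 2. TUB6 read 316.1 and 315.2 in the control, 285.8 and 254.6 in line 4, 396.0 in line 1 and 406.9 on the array with conflicting labels, which made it the 1 gene of the 7 that was highest on that array. TUB5 read 638.4 and 652.2 in the control, 609.3 and 644.0 in line 4, 879.1 in line 1 and 436.6 on the array with conflicting labels. Line 4 and the control overlapped for TUB5, whereas the remaining arrays lay far to either side.

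Line 4 was set against the control to find tubulin transcripts that differ in a line with cdpk6-yfp. TUB7 fell by 0.51 ± 0.10 on the log2 scale (SE, n = 2 against 2, limma adjusted p = 0.00860), to 0.703 of the control level. TUB9 fell by 0.28 ± 0.07 (SE, limma adjusted p = 0.0299), to 0.822 of the control level. The other 5 did not pass. TUB1 differed by -0.29 ± 0.13 (adjusted p = 0.169), TUB6 by -0.23 ± 0.08 (0.101) and TUA6 by -0.23 ± 0.08 (0.0936). TUB5 differed by -0.04 ± 0.08 with a 95% interval from -0.21 to 0.13, and TUA1 by 0.22 ± 0.12 with an interval from -0.06 to 0.49, so that neither result shows the levels to be alike. In whole seedlings, less RNA per cell and fewer cells that express a gene cannot be told apart.

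In counts, 2 of the 7 tubulin probe sets passed, both lower, where 15.5% of all probe sets passed, 7.37% lower and 8.10% higher. Line 4 lay below both controls with both arrays at 5 of the 7 (33.3% of all probe sets) and above them at TUA1 alone (26.8%). The median log2 difference was -0.23 over the 7, and -0.03 over all probe sets past the filter. The fit assumes that control and line 4 vary alike, and the calls were not equally firm. TUB9 did not pass when any 1 of the control or line 4 arrays was left out (adjusted p from 0.0513 to 0.202), and TUB7 did not pass without line 4 replicate 1 (0.0513). Without a trend in the variance neither passed (0.0657 for TUB7 and 0.128 for TUB9). When the array with conflicting labels was added to the control, TUB7 stood at -0.43 (adjusted p = 0.311) and TUB9 at -0.03 (0.970). With that array counted as line 1 the differences were the same by construction, and the adjusted p was 0.152 and 0.656.

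Other measures also differed between the lines and the control. Actin signal near the 3′ end over that near the 5′ end, a ratio that grows as RNA breaks down, was 4.27 and 4.30 in the control, 3.19 and 3.48 in line 4, 4.17 in line 1 and 4.67 on the array with conflicting labels. The same ratio for GAPDH was 1.79 and 1.71 in the control, 1.54 and 1.43 in line 4, 1.58 in line 1 and 1.67 on the array with conflicting labels, so that line 1 was below both controls in this ratio too. The summed intensity of the 2 named root markers was 77.4 and 72.7 in the control and 64.4 and 61.9 in line 4. It was 60.5 in line 1 and 76.2 on the array with conflicting labels. In line 4 both genes read below both controls on both arrays. In line 1 EXPA7 alone was below both controls, at 23.7, and EXPA18, at 36.8, lay between them. On the array with conflicting labels the genes went opposite ways, with EXPA7 at 25.7 below both controls and EXPA18 at 50.5 above both. In limma, EXPA7 differed by -0.30 (adjusted p = 0.355) and EXPA18 by -0.20 (0.505) in line 4. LHCB4.2 of the shoot read 3102.2 and 2650.1 in the control and 2400.5 and 2593.5 in line 4, a difference of -0.20 (adjusted p = 0.260). Their part in the tubulin differences was not tested.

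**Figure D2:**
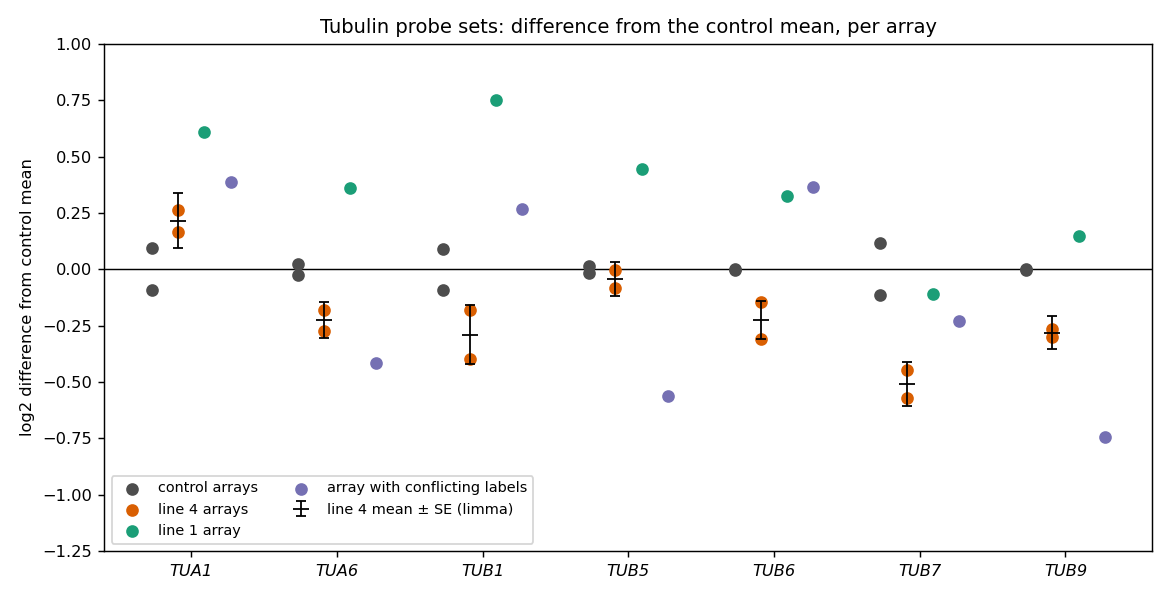
Log2 difference from the control mean for each array and gene, with black bars for the line 4 mean ± SE from limma. TUB7 (-0.51) and TUB9 (-0.28) lie lowest relative to their spread in line 4. The line 1 array is above both controls for every gene but TUB7, as it is at 43.2% of all probe sets.

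Line 1 has a single array without any replicate, and its differences are given by size, with no p-value. TUB1 stood at +0.75 on the log2 scale (1.68-fold), TUA1 at +0.61 (1.53-fold) and TUB5 at +0.45 (1.36-fold). TUA6 followed at +0.36, TUB6 at +0.33 and TUB9 at +0.15, with TUB7 at -0.11 as the exception. The array thus read above both controls at 6 of the 7 tubulin probe sets (43.2% of all probe sets) and below both at 0 (36.1%). It was the highest of all 6 arrays at 5 of the 7 (20.7% of all probe sets). No tubulin gene lay as far as 2-fold from the control mean, a distance that 1.11% of all probe sets passed upward and 2.95% downward in line 1. The median difference was 0.36 over the 7 and 0.03 over all probe sets past the filter. With the array of conflicting labels as a further line 1 array the tubulin median was -0.03. TUA6, TUB5 and TUB9 then stood below the control mean, at -0.03, -0.06 and -0.30, while TUB1 stood at +0.51, TUA1 at +0.50 and TUB6 at +0.35. The shared probe set of TUA3 and TUA5 stood at +0.42.

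**Figure D3:**
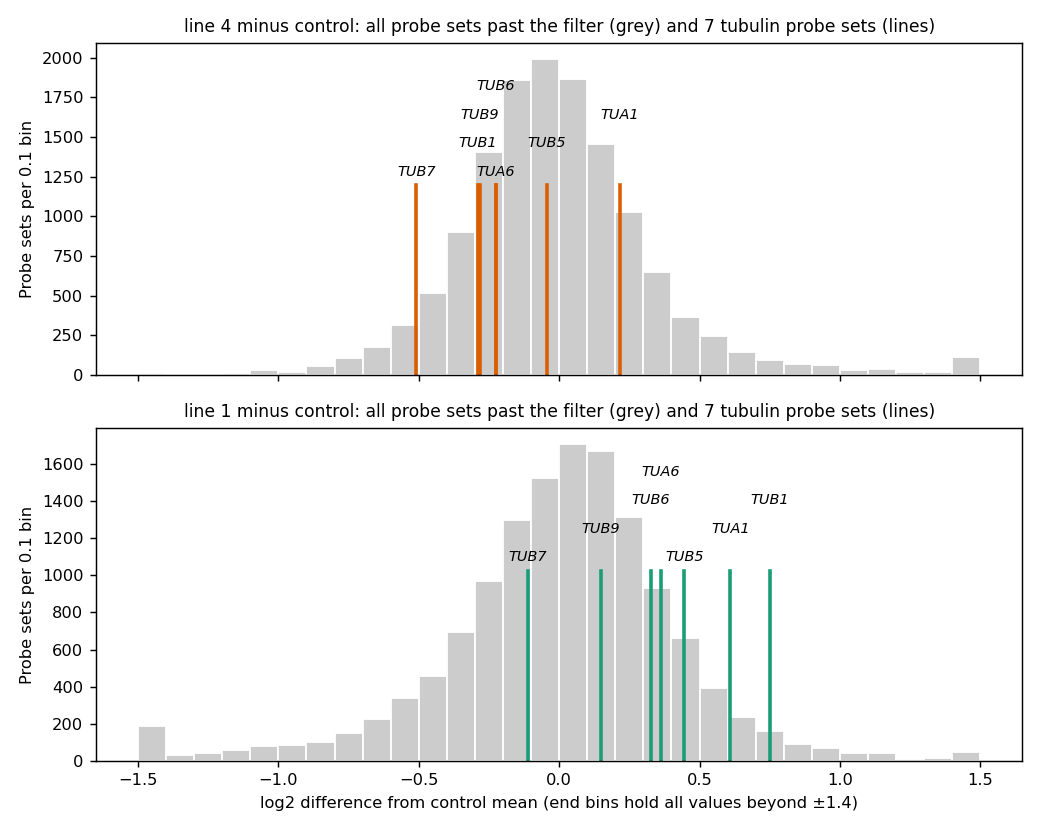
Distribution of log2 differences from the control mean over all 13648 probe sets past the filter (grey bars, probe sets per bin) for line 4 above and line 1 below, with the 7 tubulin probe sets as coloured lines. In line 4 the tubulin median is -0.23, and in line 1 it is 0.36.

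Line 4 and line 1 share their control arrays, so their values are also set side by side directly, with no test because line 1 has 1 array. At 4 genes, TUA6, TUB1, TUB6 and TUB9, both line 4 arrays were below both controls while line 1 was above them, a pattern at 9.20% of all probe sets. The mean of line 4 minus the line 1 value was -1.04 for TUB1 on the log2 scale, -0.59 for TUA6, -0.55 for TUB6 and -0.43 for TUB9. It was -0.49 for TUB5, -0.40 for TUB7 and -0.39 for TUA1. The line 1 array was thus above the mean of line 4 for all 7 genes. The share of all probe sets in that order was not counted. Over all probe sets past the filter the median difference from the control was -0.03 in line 4 and 0.03 in line 1. With the array of conflicting labels added to line 1 the difference was -0.80 for TUB1, -0.57 for TUB6 and -0.20 for TUA6, while TUB5 and TUB9 stood at 0.02 and 0.01.

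With the 3 arrays of both lines as a single group against the control, no tubulin gene passed in limma, and neither did any other probe set (0% called, against 1770 with an unadjusted p under 0.05, none of them a tubulin probe set). TUB7 was at -0.38 ± 0.17 (SE, n = 3 against 2, adjusted p = 0.406) and TUA1 at +0.35 ± 0.17 (0.430). TUB5 was at +0.12, TUB1 at +0.06, TUA6 at -0.03, TUB6 at -0.04 and TUB9 at -0.14. TUA1 and TUB7 were the genes whose mean lay on the same side of the control in both lines. When the lines were fitted as separate groups and their mean was set against the control, TUA1 was the 1 tubulin gene of 7 that passed (+0.41, adjusted p = 0.0402), in a fit where 15.4% of all probe sets passed.

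The array with conflicting labels did not follow either line across the tubulin genes. It read above both controls at 3 of the 7 (46.0% of all probe sets) and below both at 4 (36.6%). It was the lowest of all 6 arrays for TUA6, TUB5 and TUB9 (3 of 7, against 22.7% of all probe sets) and the highest for TUB6 (1 of 7, against 30.0%). Relative to the control mean it stood at -0.74 for TUB9, -0.56 for TUB5, -0.42 for TUA6 and -0.23 for TUB7, and at +0.39 for TUA1, +0.37 for TUB6 and +0.27 for TUB1. TUA6, TUB5 and TUB9 were thus lowest on this array and highest on the line 1 array, whose strain label it shares. For TUA1, TUB1 and TUB6 both arrays read above the control. The share of all probe sets with either of these joint patterns was not counted. Without a settled group these values carry no comparison.

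The spread of the tubulin probe sets was described between replicates and over all 6 arrays. The span over 6 arrays holds the replicate pairs and cannot be smaller than their gaps, so these measures are not set against each other. Control replicates differed by a median of 0.05 on the log2 scale over the 7 genes, against 0.14 over all probe sets past the filter, and line 4 replicates by 0.10 against 0.11. For TUB9 the control arrays differed by 0.003 and for TUB6 by 0.004, while TUB7 had the widest gap between controls, at 0.23. Over all 6 arrays the span from lowest to highest was widest for TUB1, at 2.22-fold, and for TUB5, at 2.01-fold, and narrowest for TUB6, at 1.60-fold. The median span was 0.78 over the tubulin genes and 0.60 over all probe sets, both on the log2 scale.

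Genes that act with tubulin were sparsely named on the array. Of 74 loci in 5 lists (nucleation, tubulin folding, microtubule-associated proteins, actin, and cellulose synthesis), 10 were named and 9 passed the filter on dim signals. ACT11, an actin gene known mainly from reproductive organs, was the 1 of these 9 that passed in line 4, against 15.5% of all probe sets in either direction and 7.37% lower. It read 87.2 and 104.6 in the control, 71.4 and 61.1 in line 4, 104.5 in line 1 and 124.1 on the array with conflicting labels, a difference of -0.53 ± 0.14 in line 4 (SE, n = 2 against 2, limma adjusted p = 0.0330). The line 4 arrays lay below both controls, and line 1 lay within their range.

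None of the 3 measured genes for microtubule-associated proteins passed. MAP65-6, of a family that cross-links microtubules, was at -0.37 ± 0.11 (adjusted p = 0.0540) in line 4, and KIN13A, a kinesin gene, at -0.26 ± 0.09 (0.0703). SPR1, whose product binds microtubule ends and whose loss twists growth, was at +0.15. In tubulin folding, TFCC and TFCE, genes for folding cofactors known as PORCINO and PFIFFERLING, were at -0.25 and -0.17 without passing. In nucleation, AT5G17410, for the gamma-tubulin complex protein GCP2, was at +0.27 and TON1B, which acts in cortical array and preprophase band formation, at -0.24, neither passing. COB, for a membrane-anchored protein needed for oriented cellulose deposition, read 534.8 and 534.7 in the control, 484.1 and 467.7 in line 4 and 754.1 in line 1. On the array with conflicting labels COB read 562.3, above both controls, whereas TUA6 was below both there. Its line 4 difference was -0.17 ± 0.07 (adjusted p = 0.159) and its line 1 difference +0.50, so that line 4 was below and line 1 above the control, as for TUA6.

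**Figure D4:**
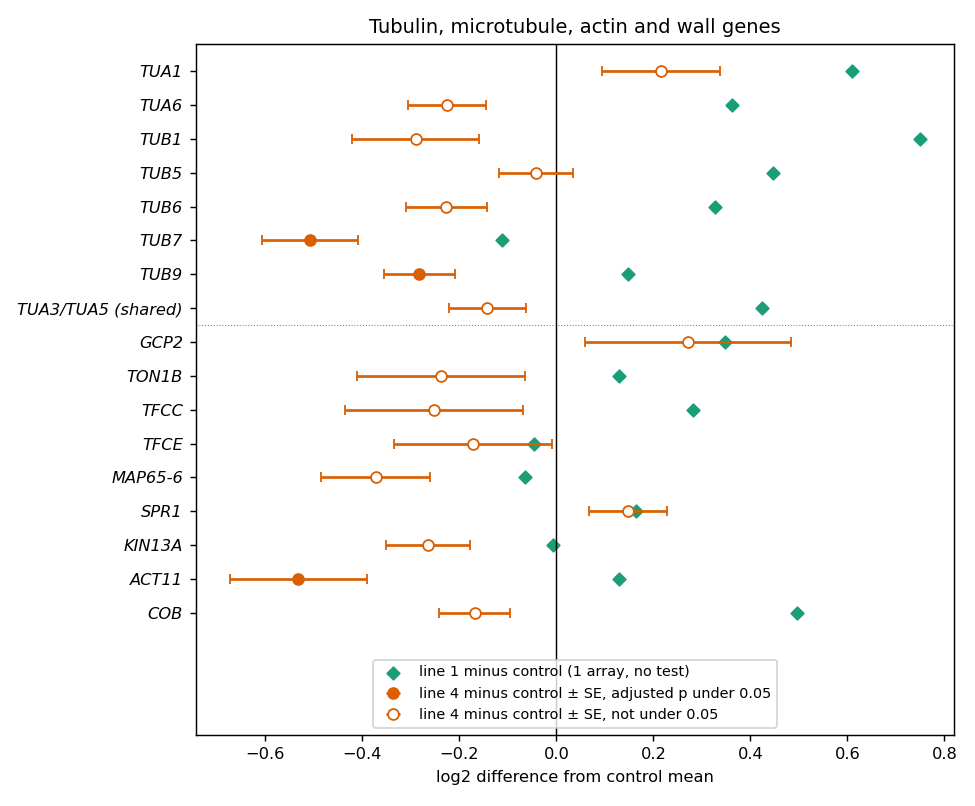
Log2 difference from the control mean for the 7 tubulin genes, the shared TUA3 and TUA5 probe set and 9 genes of related lists, with line 4 as circles ± SE (filled where the limma adjusted p was under 0.05) and line 1 as diamonds (1 array, no test). TUB7, TUB9 and ACT11 are the filled circles.

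The profile most like the mean of the 7 tubulin genes over the 6 arrays, each gene centred on its own mean, was that of NAI2, which is needed to form ER bodies (r = 0.990). The tubulin genes did not share a single profile. Between pairs of them r ran from -0.27 (TUA1 and TUB7) to 0.92 (TUA6 and TUB5), so likeness to the mean is not likeness to each gene. NAI2 read 570.2 and 537.1 in the control, 471.5 and 471.7 in line 4, 692.9 in line 1 and 485.3 on the array with conflicting labels. CCS, a copper chaperone gene for superoxide dismutase, followed at r = 0.988, and AT1G01910, AT1G80950 and AT5G11640 at 0.983, 0.978 and 0.977. These were taken as the 5 highest of 7356 probe sets of 1 gene, of which 78 reached r = 0.9, and the mean profile is highest on the line 1 array, at 0.39 on the centred log2 scale. None of the 5 passed in line 4 (adjusted p from 0.0699 to 0.679).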

How the data were processed

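RNA from 6 seedling pools was hybridised to ATH1 arrays, 1 array per sample, per the labels. The deposited values are 1 intensity per probe set on a linear scale, and from the values the authors had scaled each array to a 2% trimmed mean of about 100. How the probes were summarised is not given in the sources used. Groups follow the strain labels. Whether the pools were grown separately is not stated, and p-values then reflect only the variation among these pools, with a precision limited by the number of arrays.

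Of 22810 probe sets, 64 controls were left out. The 126 values of 0 were raised to 0.1, log2 values were used without rescaling, and the dimmest 40% by mean over the 5 grouped arrays were dropped, leaving 13648. limma 3.58.1 (R 4.3.3; lmFit, eBayes with a variance trend) was fitted to all of these, with Benjamini-Hochberg adjustment over all and a threshold of 0.05. Line 4 was tested in a fit of 3 groups (2 residual degrees of freedom), both lines in a fit of 2 groups (3). The script was tested on simulated data. Names came from the platform annotation, updated through the TAIR10.1 gene table, with 13513 probe sets of 1 gene, 503 of several and 8730 unnamed here. The files name no genome build, and coordinates are therefore omitted.

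The members and the gene lists were chosen with earlier results of these data known. All 7 members are named. From each related list the members that passed, or up to 2 of the smallest p, are named, and SPR1 was added after its value was seen. The 5 genes of the most similar profile follow the highest Pearson r. Alternatives covered a pseudocount of 10, quantile normalization, no filter, no variance trend, both placings of the array with conflicting labels, leaving out each array, and a replicate block.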

Additional observations from a re-analysis of the deposited data

Results flagged for a closer look

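The lines lay on opposite sides of the control at 4 tubulin genes, with both line 4 arrays below and the line 1 array above both controls, a pattern at 9.20% of all probe sets. The mean of line 4 minus line 1 on the log2 scale was -0.59 for TUA6, -1.04 for TUB1, -0.55 for TUB6 and -0.43 for TUB9. The difference between the lines was not tested, since line 1 has 1 array. With the array of conflicting labels as a further line 1 array these differences were -0.20, -0.80, -0.57 and 0.01.

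The array with conflicting labels was in no group of the main comparisons. On it TUA1 read 101.1 intensity units (control 72.5 and 82.6), TUB1 103.8 (92.0 and 81.0) and TUB6 406.9 (316.1 and 315.2), all above both controls, where 46.0% of all probe sets did so. The other 4 read below both controls (36.6% of all probe sets), with TUA6 at 758.2, TUB5 at 436.6, TUB7 at 234.6 and TUB9 at 308.1, the last at -0.74 from the control mean.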

How the results depend on the processing

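The array with conflicting labels is called the conflicting array here. For line 4 minus control, 2111 probe sets and 2 tubulin genes passed. The counts were 1256 and 1 without the filter on dim signals (TUB9 lost, adjusted p = 0.0632), 1111 and 0 without a variance trend, 94 and 0 with the conflicting array as control, and 203 and 0 with it as line 1. Leaving out 1 control or line 4 array gave 1028 to 2093 probe sets and 0 to 1 tubulin genes. The tubulin median of -0.227 was -0.223 with the pseudocount, -0.266 after quantile normalization, -0.087 with the conflicting array as control (where TUB5 turned to 0.145) and -0.272 to -0.182 without 1 array. TUB7 kept its direction in all 12 alternatives and passed in 8 (limma adjusted p from 7.331e-05 to 0.311). TUB9 kept its direction in 12 and passed in 4 (0.0231 to 0.970). The direction could not change without the filter, without a variance trend, or with the conflicting array as line 1. The same holds with the replicate block and without the line 1 array, since these settings leave the difference itself unchanged. Replicate numbers of control and line 4 mark no shared origin in the labels, and same-numbered deviations correlated at -0.075. With the replicate block 2608 probe sets and the same 2 tubulin genes passed, and for both lines 0 and 0. The limma adjusted p of 7.331e-05 for TUB7 came from that block, although its SE there was 0.111, against 0.099 in the main fit.

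For both lines minus control, 0 probe sets passed, against 4 with the pseudocount, 1 with the conflicting array as control, 2095 (1 tubulin gene) as the mean of 3 groups and 2116 (2 tubulin genes) without the line 1 array. Leaving out any other array gave 0. The count of 2095 takes no account of variation in line 1, which is a single array in that fit. Tubulin differences with main values from -0.139 (TUB9) to 0.120 (TUB5) turned sign in some settings. With the conflicting array as control, TUA6 was at 0.109, TUB1 at -0.032 and TUB9 at 0.109, and with it as line 1, TUB5 was at -0.051 and TUB6 at 0.060. TUA6 was at 0.016 after quantile normalization. As the mean of both lines in a fit of 3 groups, given by size only, TUA6 was at 0.068 and TUB6 at 0.050. Without 1 array TUA6 ranged from -0.225 to 0.091, TUB1 from -0.290 to 0.284, TUB5 from -0.043 to 0.222 and TUB6 from -0.227 to 0.092.

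The line 1 tubulin median of 0.362 was 0.358 with the pseudocount, 0.395 after quantile normalization, 0.481 with the conflicting array as control, -0.027 with it as line 1, and 0.337 to 0.386 without a control array. The causes of these shifts were not tested, beyond the smaller or wider groups that the settings build in.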
